A study of Mus musculus with 22 samples.

Results

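The SLC4 family comprises the bicarbonate transporters and the related borate transporter-like protein Slc4a11. Its 10 mouse genes (Slc4a1, Slc4a2, Slc4a3, Slc4a4, Slc4a5, Slc4a7, Slc4a8, Slc4a9, Slc4a10 and Slc4a11) were taken by symbol from the deposited expression table, where they make up 10 of 54514 entries. The family was singled out because Slc4a11 was far lower in GFP-positive than in GFP-negative cells. The values of that comparison therefore describe how the genes were chosen and carry no test for them.

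The cells were mpkCCD, an immortalised line of mouse renal cortical collecting duct, here 1 secondary clone (mpkCCDc11, clone 38). All cells were grown on permeable supports, first in medium with insulin, triiodothyronine, epidermal growth factor and serum. They were then moved to medium without serum or growth factors, which held dexamethasone, selenite and transferrin, for the treatment. Unsorted wild-type (WT) cells received no dDAVP (vehicle in the growth protocol, 3 libraries) or dDAVP (3 libraries). dDAVP (desmopressin) acts on the vasopressin V2 receptor, which raises cyclic AMP and the water channel aquaporin-2 (Aqp2). Cells of the 4 GFP reporter clones (C1, C11, C43, C50) all received dDAVP before being sorted into GFP-negative and GFP-positive cells, each with 2 libraries. The promoter that drives GFP is not given in the sources used here, and the series title ties the reporter to Aqp2. The 22 libraries thus form 10 groups, and the labels do not say that replicates came from separate cultures, so p-values measure the spread between these libraries. Levels are the authors' TPM, an abundance per transcript length that can be compared between genes, and the sequencing depth behind them is unknown. Changes are differences of log2(TPM + 1), which understate the change of low genes.

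SLC4 proteins move bicarbonate across the plasma membrane and so set intracellular pH and the transport of acid and base by epithelia. Slc4a1, Slc4a2 and Slc4a3 exchange chloride for bicarbonate without sodium. Slc4a4, Slc4a5, Slc4a7, Slc4a8 and Slc4a10 couple bicarbonate to sodium. Slc4a9 is a basolateral transporter of renal intercalated cells, and Slc4a11 is reported to carry protons or hydroxide ions in place of bicarbonate and is best known from the corneal endothelium. In the collecting duct, intercalated cells carry Slc4a1 or Slc4a9, while principal cells carry Aqp2.

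The label of a collecting duct line was checked against marker genes. Of 12 principal-cell markers, 8 had a median of at least 1 TPM over the libraries, among them Aqp2, Avpr2, Scnn1a and Gata3, while Scnn1b, Kcnj1 and Elf5 were below 1 TPM in every library. Of 11 intercalated-cell markers other than SLC4 genes, 3 reached that median (Atp6v1b1, Aqp6 and Rhcg), and Foxi1, Atp6v0d2 and Slc26a4 were below 1 TPM throughout. Of 5 proximal tubule markers 1 reached it (Lrp2, 0.94 to 15.92 TPM), and of 2 leukocyte markers 1 (Cd68, 2.86 to 12.44 TPM). Of 6 erythroid, 4 thick ascending limb and distal convoluted tubule, 4 fibroblast and 3 endothelial markers, 0 did. The GFP transcript was at 5.31 to 17.57 TPM in GFP-negative and 1064.51 to 1566.94 TPM in GFP-positive libraries, against 0 to 0.79 TPM in WT cells. GFP-negative replicate 1 of clone C50 stood apart, with 7.81% of its TPM in ribosomal-protein transcripts against 3.64% to 5.81% in the other libraries. The number of genes detected left 10 libraries at 17177 to 20250 genes and 12 libraries at 23135 to 31292, with both kinds in WT cells and in the clones.

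Slc4a2 was abundant in every group, and Slc4a11 in WT and GFP-negative cells, where the other 8 members were far below both. In GFP-positive C11, C43 and C50 cells the mean of Slc4a11 was below those of Slc4a7 and Slc4a8, in C50 at 7.77 TPM against 18.91 and 10.45 TPM. In GFP-positive C1 cells it was 18.75 TPM beside 18.04 TPM for Slc4a7. Slc4a11 (ENSMUSG00000074796) ranged over the 22 libraries from 6.21 to 213.89 TPM, and Slc4a2 (ENSMUSG00000028962) from 33.50 to 116.53 TPM. Slc4a4, Slc4a7, Slc4a8 and Slc4a3 lay between 1.28 and 28.16 TPM. Slc4a9 stayed at or below 8.83 TPM, Slc4a5 at or below 1.65 TPM and Slc4a10 at or below 1.47 TPM. Slc4a1 did not exceed 0.48 TPM.

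Slc4a11 was high in GFP-negative and low in GFP-positive cells of every clone. In clone C1 it was 205.34 and 213.89 TPM in GFP-negative cells and 21.43 and 16.07 TPM in GFP-positive cells. In clone C11 the GFP-negative libraries held 86.62 and 93.29 TPM and the GFP-positive libraries 6.21 and 6.45 TPM. In clone C43 the values were 202.25 and 175.56 TPM against 8.39 and 8.69 TPM. The pairs of libraries were close to each other in these 3 clones. In clone C50 the GFP-negative libraries differed, at 72.47 and 165.29 TPM, while the GFP-positive libraries held 7.42 and 8.12 TPM. The lower of the former is the library that stood apart.

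The lowest GFP-negative library was 3.38-fold above the highest GFP-positive library, so the fractions did not overlap, which held for 5.98% of all genes tested in the clones. The GFP-negative mean exceeded the GFP-positive mean 11.2-fold, 14.2-fold, 22.1-fold and 15.3-fold in C1, C11, C43 and C50. Without replicate 1, the C50 ratio was 21.3-fold. On the log2 scale the GFP-positive minus GFP-negative difference was -3.76 with a standard error of 0.155 from the fit over the 16 clone libraries with clone as a covariate. It was -3.87 without GFP-negative replicate 1 of C50. Within clones with both fractions among the libraries of fewer detected genes, the mean difference was -3.52, and among those of more detected genes it was -4.09 (3 clones each). In these bulk libraries, fewer cells that express a gene and less RNA per cell cannot be told apart.

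**Figure D1:**
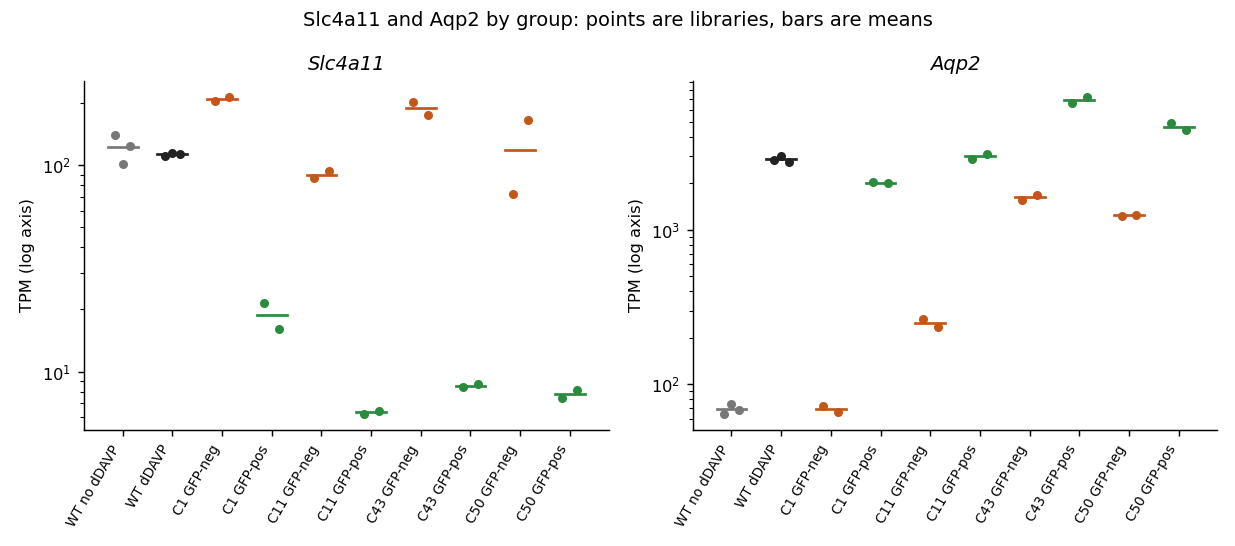
Slc4a11 and Aqp2 in TPM (log axes) in each of the 10 groups, with points for libraries and bars for group means. Slc4a11 lies between 72.47 and 213.89 TPM in the GFP-negative libraries and between 6.21 and 21.43 TPM in the GFP-positive ones, whereas in WT cells it lies within the GFP-negative range with and without dDAVP.

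The unsorted WT cells held Slc4a11 at 139.81, 101.70 and 123.76 TPM without dDAVP and at 110.36, 114.95 and 113.38 TPM with it. All 3 dDAVP libraries fell inside the range of the libraries without dDAVP. The group means were 122 ± 19.1 TPM and 113 ± 2.33 TPM (SD, n = 3 each). On the log2 scale this was a change of -0.10 (standard error 0.116, 95% confidence interval -0.37 to 0.17, limma adjusted p 0.592, adjusted over all genes tested). A two-sided exact permutation over 20 arrangements of the libraries gave p 0.6, where the smallest p this design allows is 0.1. Aqp2 in the same libraries rose from a mean of 69.1 to 2868 TPM.

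The levels of Slc4a11 and Aqp2 did not run against each other in every group. WT cells with dDAVP held 2868 TPM of Aqp2 and 113 TPM of Slc4a11, while C1 GFP-positive cells held 2017 TPM of Aqp2 and 18.8 TPM of Slc4a11. C43 GFP-negative cells held 1624 TPM of Aqp2 beside 189 TPM of Slc4a11. C1 GFP-negative cells, with Aqp2 at 69.5 TPM, had 210 TPM of Slc4a11. The WT mean with dDAVP was 6.02, 17.8, 13.2 and 14.5 times the Slc4a11 mean of GFP-positive C1, C11, C43 and C50 cells. WT libraries were unsorted and did not come from the reporter clones, so sorting, cloning and reporter cannot be told apart in that contrast, and these levels are given without a test.

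In order of mean, Slc4a11 was highest in GFP-negative C1 and then GFP-negative C43 cells. WT cells without dDAVP, GFP-negative C50 cells and WT cells with dDAVP came next, and their libraries overlapped. GFP-negative C11 cells followed at 90.0 ± 4.72 TPM (SD, n = 2). The GFP-positive groups closed the order, with C1 above C43, C50 and C11. C50 and C43 lay close together at 7.77 ± 0.495 and 8.54 ± 0.212 TPM (SD, n = 2 each).

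Clones also differed from each other in Slc4a11 in both fractions. The mean over the 4 libraries of a clone, weighting both fractions alike, was 114 TPM in C1, 98.7 TPM in C43, 63.3 TPM in C50 and 48.1 TPM in C11. The highest clone was C1 and the lowest C11 in both fractions, 2.33-fold apart in GFP-negative and 2.96-fold apart in GFP-positive cells. limma's moderated F-test of the clones, with fraction as a covariate, gave an adjusted p of 0.00180. Without clone C1 the adjusted p was 0.178. Of the 7 members with a mean of at least 1 TPM over the clone libraries, 3 passed this test (Slc4a11, Slc4a4 and Slc4a9), where 28.0% of all 13113 genes tested did.

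The size of the fraction difference in Slc4a11 was not shown to differ between clones. The log2 differences were -3.43 for C1, -3.63 for C11, -4.31 for C43 and -3.66 for C50 (standard error 0.285 each). The interaction of fraction and clone gave a limma adjusted p of 0.541. Of the 7 members, 0 passed the interaction test and 2 had an unadjusted p under 0.05 (Slc4a7 and Slc4a9), against 0.869% of all genes called and 12.9% with an unadjusted p under 0.05. Leaving out GFP-negative replicate 2 of C50, so that replicate 1 stood alone for its group, gave 6 calls, with Slc4a11 at an adjusted p of 0.00428. Without replicate 1 there were 0, and Slc4a11 had an adjusted p of 0.0564.

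Across the 10 group means of log2(TPM + 1), the pattern of Slc4a11 was most closely followed by Ccnd1, Fgf21, Dyrk3, Wnt10a and Lhfp among 10213 genes with a mean of at least 5 TPM. Their Pearson correlations with it were 0.993, 0.991, 0.990, 0.987 and 0.985. Ccnd1, which encodes cyclin D1, had a mean of 19.7 TPM over the GFP-negative and 1.24 TPM over the GFP-positive libraries. Its WT means were 15.97 TPM without and 13.84 TPM with dDAVP. Wnt10a, a Wnt ligand, was at 45.7 TPM in GFP-negative and 3.08 TPM in GFP-positive libraries, and at 33.4 and 29.8 TPM in WT cells. These genes share with Slc4a11 high levels in WT cells under both conditions and low levels in GFP-positive cells. The groups share clones and the GFP split, so these coefficients are a description. For comparison, Slc4a4 had a correlation of 0.679 with Slc4a11, Slc4a2 of 0.00681, Aqp2 of -0.682 and GFP of -0.900.

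Thin limb markers were examined because Slc4a11 is known from the thin descending limb in mouse kidney. Of 5 such markers, 2 had a median of at least 1 TPM, among them Bst1, and Aqp1 and Slc14a2 were below 1 TPM in every library. The summed TPM of the list was 43.2 to 131 in GFP-negative, 18.9 to 73.3 in GFP-positive and 52.7 to 68.5 in WT libraries, so the fractions overlapped. The summed intercalated-cell list was 21.6 to 73.7 TPM in GFP-negative, 50.3 to 117 TPM in GFP-positive and 139 to 174 TPM in WT libraries. In the clones most of that sum was 1 gene, Atp6v1b1, with means of 46.3 TPM in GFP-negative and 77.7 TPM in GFP-positive libraries. In WT cells Rhcg was also high, with means of 88.5 TPM without and 96.8 TPM with dDAVP. The summed principal-cell list, which includes Aqp2, was 620 to 3031 TPM in GFP-negative and 3161 to 10796 TPM in GFP-positive libraries, which did not overlap. Aqp2 made up much of that sum, at no more than 1679.76 TPM in GFP-negative and no less than 2007.53 TPM in GFP-positive libraries. The series title ties the sorted reporter to Aqp2, so nothing is read from this separation. Of the 9 principal-cell genes tested between fractions, limma called 6 higher in GFP-positive cells (Aqp2, Avpr2, Scnn1g, Hsd11b2, Fxyd4 and Gata3) and 1 lower (Aqp3). Among all 13113 genes tested, 12.1% were called higher and 23.2% lower. Avpr2, the vasopressin V2 receptor, had a log2 difference of 1.16 (adjusted p 5.0e-09) and Fxyd4, a regulator of the sodium pump, one of 1.94 (adjusted p 2.3e-07). The part of these lists in the Slc4a11 values was not tested.

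Slc4a4, the electrogenic sodium bicarbonate cotransporter, was the other member that was lower in GFP-positive cells. Slc4a4 has several transcription starts that give proteins with different N-termini. Windows of 300 bases around its starts are shown because the TPM sum both and cannot tell them apart. Each runs from 250 bases before to 50 bases after a RefSeq start on the plus strand of GRCm38.p6. RefSeq windows were found for 7 of the 10 members (10 windows).
Slc4a4, upstream start, chr5:88887010-88887309: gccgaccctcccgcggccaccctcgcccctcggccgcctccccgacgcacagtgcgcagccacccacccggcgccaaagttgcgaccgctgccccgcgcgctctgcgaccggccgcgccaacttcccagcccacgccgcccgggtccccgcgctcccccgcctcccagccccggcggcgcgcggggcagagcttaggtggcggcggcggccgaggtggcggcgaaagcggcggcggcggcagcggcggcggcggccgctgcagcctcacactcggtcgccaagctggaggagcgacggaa
Slc4a4, downstream start, chr5:89027716-89028015: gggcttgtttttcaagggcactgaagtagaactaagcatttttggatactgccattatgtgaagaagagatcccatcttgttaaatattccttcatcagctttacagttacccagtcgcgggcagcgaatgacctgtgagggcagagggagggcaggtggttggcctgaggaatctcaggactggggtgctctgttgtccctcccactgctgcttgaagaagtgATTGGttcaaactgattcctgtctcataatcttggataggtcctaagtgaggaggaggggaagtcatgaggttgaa
The upstream window is 80% G and C with 50 CpG dinucleotides, and the downstream window is 48.3% G and C with 3. Capitals mark the only match in either window to the letters searched on both strands, which were the cyclic AMP response element TGACGTCA, the shorter core of that element (TGACG), the AP-1 motif TGANTCA, the TATA box (searched as TATAAA) and the CCAAT box. The match is CCAAT on the minus strand, at position -26 counted from the start, and shown as ATTGG in the printed strand. The letters CCAAT occur in 37.4% of all 32851 RefSeq windows of this length, TGACGTCA in 1.79%, TGACG (which TGACGTCA contains) in 20.8%, TGANTCA in 7.81% and TATAAA in 13.6%.

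In clone C1, Slc4a4 was 27.84 and 28.16 TPM in GFP-negative cells and 10.34 and 12.58 TPM in GFP-positive cells. In clone C11 it was 23.32 and 17.71 TPM against 5.24 and 7.79 TPM. In clone C43 the values were 10.37 and 11.31 TPM against 3.87 and 2.88 TPM. The fractions were apart in these 3 clones, by 2.44-fold, 3.15-fold and 3.21-fold in their means. In clone C50, GFP-negative cells held 5.24 and 11.55 TPM and GFP-positive cells 8.22 and 3.93 TPM, which overlap. The C50 ratio of means was 1.38-fold, and 1.90-fold without GFP-negative replicate 1.

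The log2 difference of Slc4a4 between fractions was -1.15 with a standard error of 0.197. By clone the values were -1.22 (C1), -1.53 (C11), -1.44 (C43) and -0.39 (C50). Of the 7 members tested here, 2 were past the threshold of an adjusted p under 0.05 (Slc4a11 and Slc4a4), both lower, where 35.3% of all 13113 genes were (12.1% higher and 23.2% lower). Nothing is read from that count, since the members were chosen on this contrast. Slc4a4 also differed between clones, with 4-library means of 19.7 TPM in C1, 13.5 TPM in C11, 7.24 TPM in C50 and 7.11 TPM in C43 (limma adjusted p 0.00409). Without clone C1 the adjusted p was 0.254.

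In WT cells Slc4a4 was 14.80, 8.27 and 14.07 TPM without dDAVP and 6.17, 8.91 and 6.62 TPM with it. Replicate 2 without dDAVP, at 8.27 TPM, lay below replicate 2 with dDAVP, so the groups overlapped. The difference was -0.68 on the log2 scale (standard error 0.232, 95% confidence interval -1.22 to -0.13, limma p 0.0214, adjusted p 0.103), which did not pass the test. Over 16 alternative settings the adjusted p ran from 0.0539 to 0.275.

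**Figure D2:**
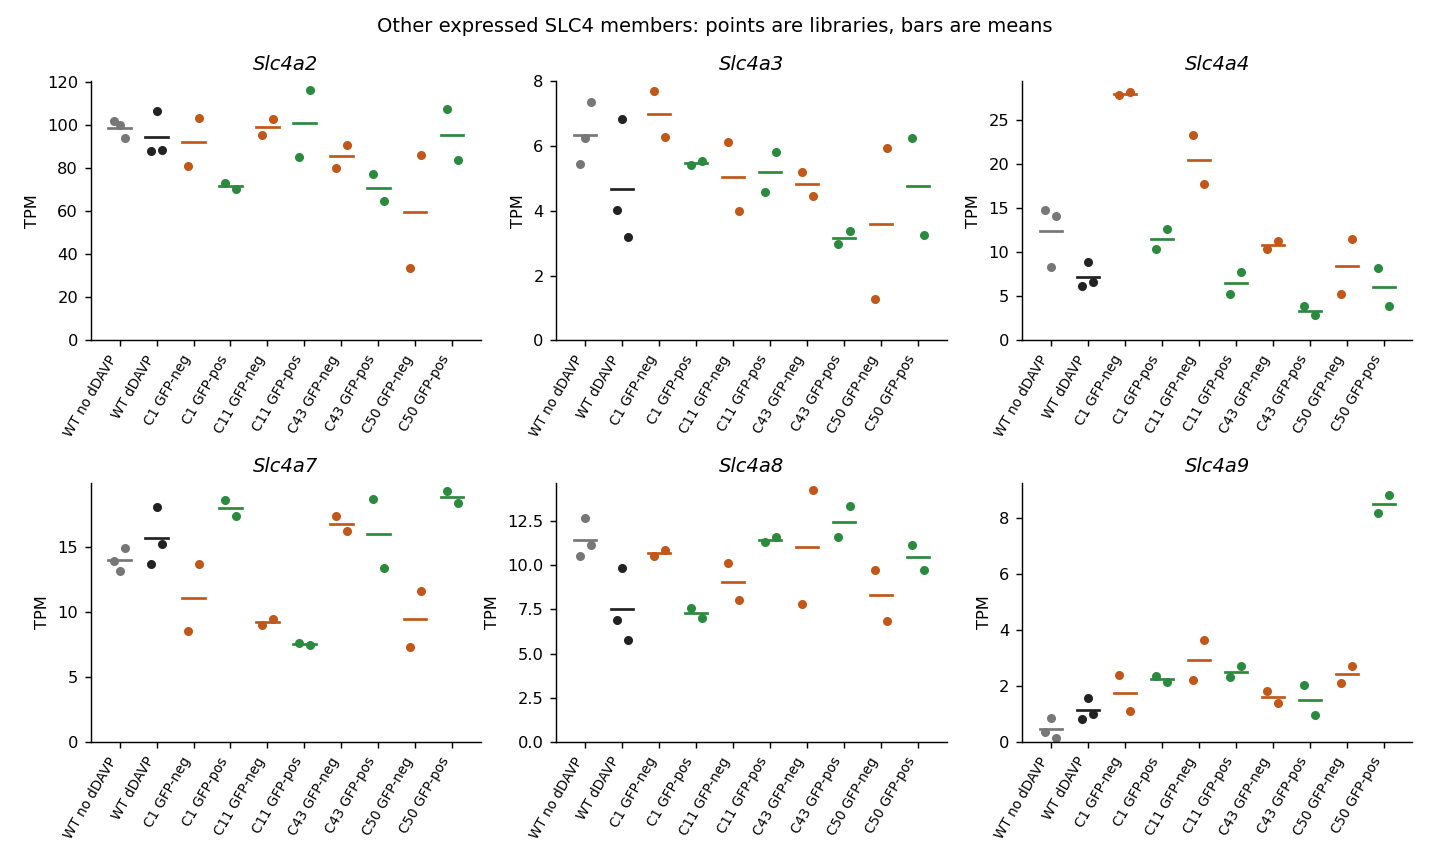
TPM of Slc4a2, Slc4a3, Slc4a4, Slc4a7, Slc4a8 and Slc4a9 in each group, with points for libraries and bars for group means. The pooled GFP fractions overlap for each of these members, and Slc4a9 is highest in the GFP-positive C50 libraries at 8.17 and 8.83 TPM.

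Slc4a8, the sodium-driven chloride bicarbonate exchanger, was 10.50, 12.69 and 11.15 TPM in WT cells without dDAVP and 6.90, 9.83 and 5.78 TPM with it. These libraries did not overlap, which held for 35.8% of all 13494 genes tested in WT cells. The change of -0.57 on the log2 scale (standard error 0.186, limma p 0.0166, adjusted p 0.0910) and did not pass the test. Without dDAVP replicate 2, the highest of its group, it was -0.76 with an adjusted p of 0.0271. The exact two-sided permutation p was 0.1, the smallest the design allows. Between GFP fractions Slc4a8 spanned 6.85 to 14.24 TPM in GFP-negative and 7.03 to 13.34 TPM in GFP-positive libraries, with a log2 difference of 0.09.

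Slc4a7, the electroneutral sodium bicarbonate cotransporter, was 13.20 to 14.95 TPM in WT cells without dDAVP and 13.74 to 18.11 TPM with it, a log2 change of 0.15 (limma adjusted p 0.439). In the clones it spanned 7.36 to 17.43 TPM in GFP-negative and 7.48 to 19.39 TPM in GFP-positive libraries. GFP-positive C50 cells held 19.39 and 18.44 TPM, above their GFP-negative counterparts at 7.36 and 11.64 TPM, and C1 showed the same order at 18.64 and 17.43 against 8.53 and 13.74 TPM. C11 held 7.60 and 7.48 TPM in GFP-positive and 9.0 and 9.51 TPM in GFP-negative cells, the opposite order. The log2 differences were 0.68, -0.26, -0.08 and 0.95 in C1, C11, C43 and C50. The interaction had an unadjusted p of 0.0109 and a limma adjusted p of 0.231, and the test of the clones an adjusted p of 0.0526. The clone test passed in 8 of 29 alternatives, among them leaving out GFP-negative C50 replicate 1 (0.00833), GFP-negative C1 replicate 1 (0.0320) or GFP-positive C43 replicate 2 (0.0326).

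Slc4a5, an electrogenic cotransporter known from the choroid plexus, was 1.13, 1.65 and 0.95 TPM in WT cells without dDAVP and 0.59, 1.26 and 0.77 TPM with it. The log2 change was -0.26 (limma adjusted p 0.552). It was 0.04 to 0.70 TPM in the clones and did not reach the minimum of 1 TPM there. Slc4a10, a neuronal sodium bicarbonate transporter, was at 0 in 9 of 22 libraries and did not exceed 1.47 TPM. It was too low for a test in either comparison.

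Among the chloride bicarbonate exchangers, Slc4a2 was the abundant member, and its levels overlapped between the WT groups and between the GFP fractions. In WT cells it was 101.95, 100.15 and 94.17 TPM without dDAVP and 88.16, 106.61 and 88.68 TPM with it. The log2 change was -0.07 with a 95% confidence interval of -0.29 to 0.15 (limma adjusted p 0.642). GFP-negative libraries spanned 33.50 to 103.49 TPM with a median of 88.6, and GFP-positive libraries 64.85 to 116.53 TPM with a median of 80.6. The value of 33.50 TPM came from GFP-negative replicate 1 of C50, whose partner held 86.42 TPM. The log2 difference between fractions was 0.05 with a standard error of 0.191, and -0.14 without that library. Slc4a2 overlaps Fastk on the opposite strand in the GENCODE mouse annotation, and the library kit does not mark strand, so reads of the overlap cannot be told apart.

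Slc4a3, an exchanger known from heart and brain, was 5.45 to 7.34 TPM in WT cells without dDAVP and 3.19 to 6.82 TPM with it, a log2 change of -0.42 (limma adjusted p 0.287). Its fractions overlapped, at 1.28 to 7.68 TPM in GFP-negative and 2.96 to 6.25 TPM in GFP-positive libraries. The lowest value was again GFP-negative replicate 1 of C50. Slc4a1, band 3 of red cells and the basolateral exchanger of acid-secreting intercalated cells, was at 0 in 17 of 22 libraries.

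Slc4a9 was 0.36, 0.86 and 0.16 TPM in WT cells without dDAVP and 0.83, 1.57 and 1.02 TPM with it, below the minimum for a test. It was 0.96 to 8.83 TPM in the clones. The 2 highest values, 8.17 and 8.83 TPM, were the GFP-positive C50 libraries, whose GFP-negative counterparts held 2.11 and 2.72 TPM. In the other clones both fractions lay between 0.96 and 3.63 TPM. The 4-library means were 5.46 TPM in C50, 2.72 TPM in C11, 2.00 TPM in C1 and 1.56 TPM in C43 (limma adjusted p for clones 0.0422). This call was lost in 15 of 28 alternatives, with an adjusted p of up to 0.154, among them 10 of the 16 that left out 1 clone library. The adjusted p was highest among these without GFP-positive C50 replicate 1 (0.126) or replicate 2 (0.128). By clone the log2 difference between fractions was 0.28 (C1), -0.14 (C11), -0.09 (C43) and 1.48 (C50), and the interaction had an adjusted p of 0.219.

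Over the family, dDAVP moved no member past the threshold in WT cells. Of the 7 members tested (all but Slc4a1, Slc4a9 and Slc4a10), limma called 0 at an adjusted p under 0.05 and 2 at an unadjusted p under 0.05 (Slc4a4 and Slc4a8). Among all 13494 genes tested, 8.88% were called (2.37% higher and 6.51% lower) and 31.0% had an unadjusted p under 0.05. The median log2 change was -0.26 over the 7 members and -0.16 over all genes. Median-ratio scaling brought the median of all genes to 0.0003, the change of Slc4a11 to 0.08 and that of Slc4a2 to 0.10, so small negative changes in WT cells are to be read against that shift.

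**Figure D3:**
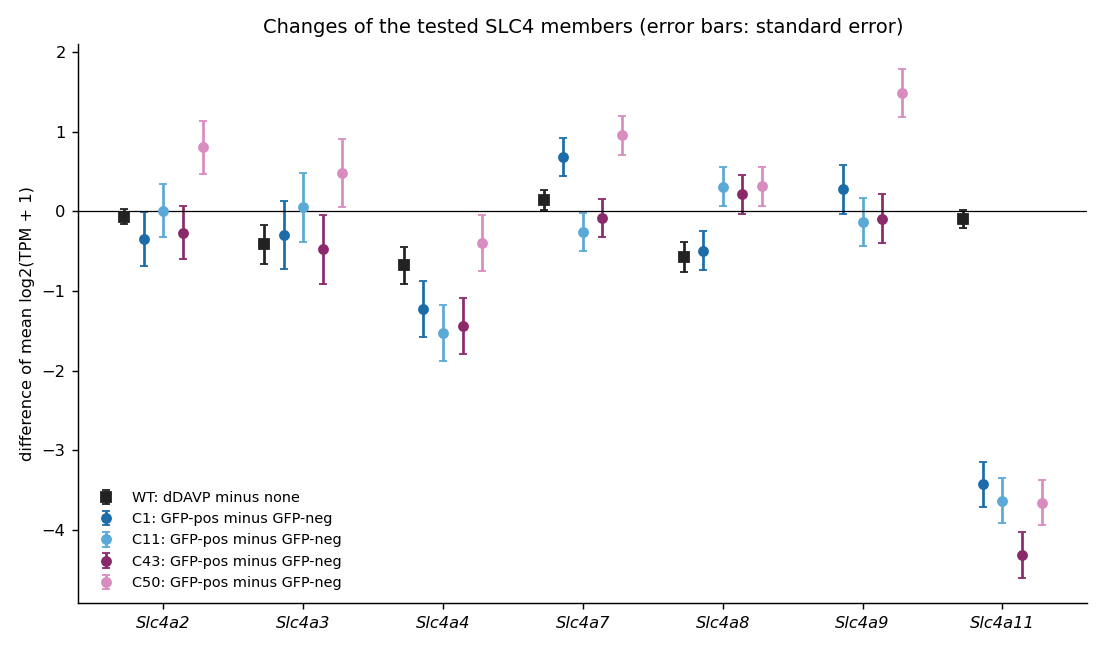
Log2 changes of the members tested in the clones, for dDAVP in WT cells and for GFP-positive minus GFP-negative cells in each clone. Bars are 1 standard error from limma. Slc4a11 is at -0.10 for dDAVP and from -4.31 (C43) to -3.43 (C1) between fractions. Slc4a4 is at -0.68 for dDAVP and from -1.53 (C11) to -0.39 (C50) between fractions.

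The share of Slc4a11 in the summed TPM of the family was lower in GFP-positive cells. The family was singled out on this fall, so shares and sums that include Slc4a11 are a description. The summed TPM of the 10 members was 132 to 378 in GFP-negative libraries (median 303) and 108 to 169 in GFP-positive libraries (median 134). The lowest GFP-negative sum was that of C50 replicate 1, and without it the GFP-negative range was 233 to 378 TPM, above all GFP-positive libraries. Slc4a11 made up 37.2% to 62.1% of that sum in GFP-negative and 4.06% to 15.4% in GFP-positive libraries. In WT cells its part was 41.5% to 48.5% without dDAVP and 42.9% to 48.0% with it. Slc4a2 made up 23.6% to 43% in GFP-negative and 52.7% to 73.3% in GFP-positive libraries. Without Slc4a11 the sums overlapped, at 59.3 to 164 TPM (median 138) and 99.2 to 161 TPM (median 118). They also overlapped without that C50 library, at 124 to 164 TPM (median 139) in GFP-negative cells.

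**Figure D4:**
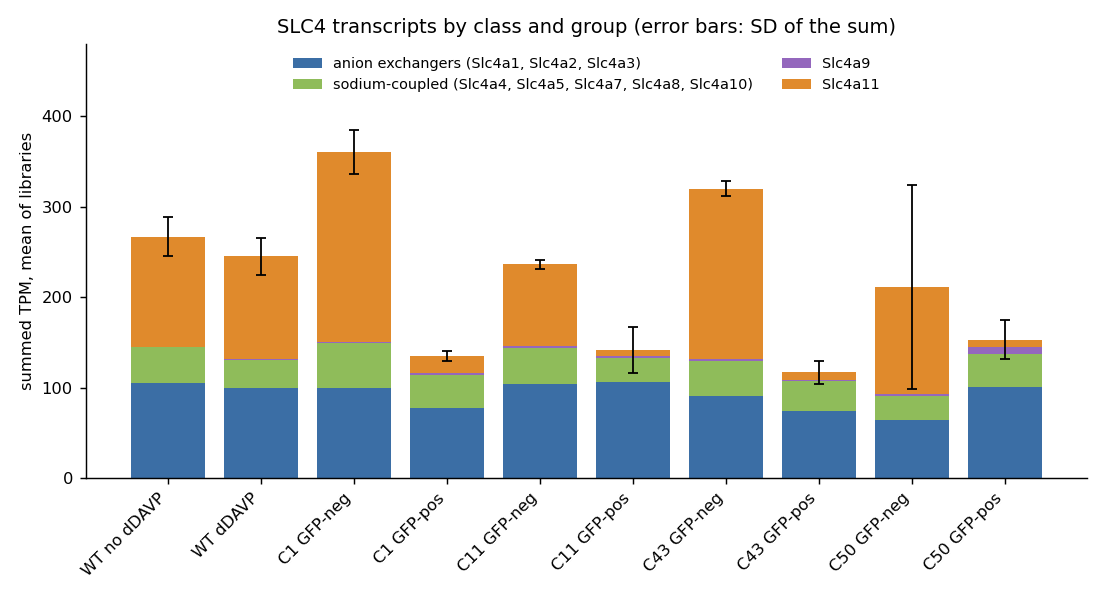
Summed TPM of the SLC4 members in each group as stacked group means, with error bars of 1 SD of the sum over libraries. The Slc4a11 segment shrinks from 37.2% to 62.1% of the sum in GFP-negative libraries to 4.06% to 15.4% in GFP-positive ones, while the sum of the other members overlaps between the fractions.

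Other genes of acid, base and ammonium transport were followed in a list of 80 (carbonic anhydrases, SLC26 exchangers, sodium/proton exchangers, proton pumps, ammonium transport, SLC4 partners and monocarboxylate transporters). In WT cells 47 were tested, of which limma called 3 higher and 1 lower with dDAVP, beside 2.37% and 6.51% of all genes tested (8.88% in all). The count of 4 ran from 1 to 10 over the alternatives, and from 1 to 7 when each WT library was left out in turn. Atp6v0a4, a subunit of the vacuolar proton pump known from intercalated cells, was 14.69, 16.05 and 15.74 TPM without dDAVP and 31.64, 50.70 and 36.70 TPM with it. It rose by 1.28 on the log2 scale (standard error 0.166, adjusted p 0.00704) and passed in 16 of 16 alternatives. Atp6v0d1, another pump subunit, rose by 0.42 (adjusted p 0.0368), and Atp4a, the gastric proton pump, by 1.12 from 0.797 to 2.86 TPM (adjusted p 0.0490). These passed in 8 of 16 and 5 of 15 alternatives, and leaving out 1 WT library ended the call in 5 and 6 of 6 cases. The median change was -0.03 over the list and -0.16 over all genes.

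Between GFP fractions 43 of the 80 were tested, and 9 were higher and 3 lower in GFP-positive cells, beside 12.1% and 23.2% of all genes. The carbonic anhydrases, which interconvert carbon dioxide and bicarbonate, had 3 of 5 tested genes higher. Car2 was 171 to 270 TPM in GFP-negative and 213 to 529 TPM in GFP-positive libraries, which overlap, with a log2 difference of 0.66 and a standard error of 0.082 (limma adjusted p 2.6e-05). Of 19 proton pump genes, 5 were higher and 1 (Atp6v1g1) lower. Atp6v0a4 was 16.24 to 29.96 TPM in GFP-negative and 32.20 to 93.85 TPM in GFP-positive libraries, which did not overlap, with a difference of 1.19 (adjusted p 2.5e-05). Atp6v0a4 was thus higher both with dDAVP and in GFP-positive cells. Gls2, the liver-type glutaminase, was 7.29 ± 2.62 TPM in GFP-negative and 3.09 ± 1.52 TPM in GFP-positive libraries (SD, n = 8 each), a difference of -1.04 (adjusted p 0.00281). SLC26 exchangers had 1 of 5 lower (Slc26a10).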

How the data were processed

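Per the labels' protocols, cDNA was made with the SMART-Seq HT kit and libraries with Nextera XT, sequenced paired-end. Per the submitters' processing notes, STAR and RSEM were used, and the build and annotation are not given in the sources used here. The authors deposited TPM per gene and library, which keep no depth. Groups came from the labels, and doses and durations, which are not tied to libraries there, were not analysed. The 980 lines sharing one of 79 symbols were summed, leaving 54514 entries. Another 16 columns (authors' means, maxima and ratios) were not used.

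limma 3.58.1 (R 4.3.3, statmod 1.5.0) was fitted to log2(TPM + 1) of all genes with a mean of at least 1 TPM over the libraries compared, with a mean-variance trend. Tests were two-sided and adjusted by Benjamini-Hochberg, with a threshold of 0.05. The dDAVP fit used the 6 WT libraries, and the clone fits the 16 clone libraries. The procedure was tested on simulated data. The members and gene lists were chosen with earlier results of these data known. Named genes are all members, Aqp2, GFP, the 5 genes most like Slc4a11 (passing over provisional symbols), list genes called in WT cells and examples of list genes called between fractions, the last chosen after their values were seen. A few genes of the lists are counted but not reported by name here. Alternatives were a pseudocount of 0.1, filters at 5 TPM or above 0, median-ratio and quantile scaling, no trend, robust moderation, detected genes as a covariate, the replicate number as a block, clone means, all 22 libraries in 1 fit, and leaving out each library or clone.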

Additional observations from a re-analysis of the deposited data

How the results depend on the processing

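Of 902 alternative values for 37 results, 828 stayed on their side of the threshold (counts within 1.5 times, values without a test within 1 SD). Of these, 8 small untested differences of Slc4a2 and Slc4a3 between fractions changed sign. In 3 cases a dDAVP change that passed no test reversed: Slc4a11 to 0.0753 and Slc4a2 to 0.103 with median-ratio scaling, and Slc4a11 to 0.00873 without WT no-dDAVP replicate 1. Leaving out each WT library gave -0.219 to 0.00873 for Slc4a11. Leaving out 1 library gave 0 to 1 members called for dDAVP (1 without dDAVP replicate 2, which was Slc4a8), 1 to 7 acid-base genes against 4, 2 to 4 members for clones, and 0 to 6 for the interaction (6 without GFP-negative C50 replicate 2). The acid-base count was 1 with any TPM above 0 as the filter, 1 with the replicate block and 10 with detected genes as a covariate. Without clone C1, 0 members were called for clones. The cause was not tested in these cases. Same-numbered WT libraries had deviations correlated at -0.21, -0.03 and -0.10, and those of the clones at 0.05, 0.01, 0.21 and 0.09. Pairing by number was thus not shown, though such correlations can miss a shared culture or batch, since detected genes also varied within groups. With the replicate block 0 members were called for dDAVP and 2 for clones (Slc4a9 had an adjusted p of 0.0543). The Slc4a11 difference between fractions stayed between -3.89 and -3.57 over 30 alternatives. TPM keep no depth, so values near 0 (Slc4a1, Slc4a10, Slc4a5) have an unknown counting error.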

Other observations

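Rhcg, an ammonium transporter of the collecting duct, was present in WT cells and near 0 in the clones. Its mean was 88.5 TPM without and 96.8 TPM with dDAVP in WT cells, where its log2 change of 0.12 did not pass the test (limma adjusted p 0.487). In the clones it was 0.549 TPM in GFP-negative and 0.990 TPM in GFP-positive libraries. Slc4a5 had the same order, at 0.59 to 1.65 TPM in WT and 0.04 to 0.70 TPM in clone libraries, and Slc4a9 the opposite one, at 0.16 to 1.57 TPM in WT and 0.96 to 8.83 TPM in clone libraries. These genes were chosen after their values were seen, and WT cells and clones were not tested against each other, since sorting and clonal origin cannot be told apart there.

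The GFP-positive C50 libraries, highest for Slc4a9, were also the highest for Atp6v0a4, at 91.09 and 93.85 TPM, against 32.20 to 45.35 TPM in the other GFP-positive libraries. This pair was likewise chosen after the values were seen.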
